A study of Homo sapiens with 10 samples.

Results

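Genes of the main cell adhesion families were followed in T47D breast cancer cells that carried no progesterone receptor (PR), wild-type PR-A, or PR-A that cannot be SUMOylated. The members were integrin subunits (symbols beginning ITGA or ITGB), cadherins (CDH and a digit), protocadherins (PCDH), the CEACAM, ICAM and NCAM families, and ALCAM, MCAM and L1CAM. A gene was measured by 1 probe set of the array, the one with the highest mean among those that map to that symbol alone. By this rule 64 of the 8904 genes in the table were members, and they came from 96 probe sets. They comprised 16 integrin alpha subunits, 7 beta subunits, 3 genes named after integrins that encode no subunit, 13 cadherins, 9 protocadherins, 5 CEACAM genes, 4 ICAM genes, ALCAM, L1CAM, MCAM, NCAM2 and 3 non-coding genes named after a member. Only part of the array's probe sets was in the table, so other genes of these families were not analysed here.

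Integrins are heterodimers of an alpha and a beta subunit that link the cytoskeleton to extracellular matrix or, in leukocytes, to ICAM ligands on other cells. Classical cadherins join neighbouring cells by binding the same cadherin across the gap and hold on to actin through catenins, while the CEACAM, ICAM, ALCAM, L1CAM and NCAM proteins carry immunoglobulin domains that bind partners on the opposite cell. In breast epithelium E-cadherin (CDH1) holds luminal cells together, and integrins that bind laminin anchor the epithelium to its basement membrane.

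The study asked what SUMOylation of PR-A does to gene expression, by comparing PR-A with a mutant whose SUMO attachment lysine is exchanged (PR-A K388R). The 10 arrays (Affymetrix U133 Plus 2) fell into 5 groups of 2: T47D-Y cells with vehicle, WT PR-A cells with vehicle, WT PR-A cells with R5020, PR-A K388R cells with vehicle and PR-A K388R cells with R5020. T47D-Y is a PR-negative clone of the T47D line, derived from a human luminal breast cancer, and both PR-A lines are stable transfectants of it. R5020, a synthetic progestin that activates PR, was given at 10 nM for 24 h, the vehicle was ethanol, and T47D-Y cells with R5020 were not analysed here. Each genotype was 1 line. A difference between lines, with vehicle or in the response to R5020, thus cannot be told apart from one between the lines in which each receptor was expressed. The labels number the arrays of a group 1 and 2 without saying that they were separate cultures, and p-values then measure only the spread between these arrays.

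All values are log2 signals as the authors normalized them, on which the array medians lay between 4.59 and 4.69 and the lower quartiles between 3.28 and 3.39. Arrays of 1 group correlated at r = 0.996 to 0.997 across probe sets, and arrays of different groups at 0.977 to 0.993. The label of a luminal line was met by 6 of 7 measured luminal markers above the array median on all arrays, KRT18 at 13.45 to 14.29 and EPCAM at 11.09 to 11.77 among them. Basal or mesenchymal markers were above it on all arrays for 4 of 6 genes (S100A4 at 8.14 to 10.34) and fibroblast markers for 3 of 6 (COL1A1 at 6.11 to 9.59), with the other 3 fibroblast markers under it. Of the endothelial markers 4 of 5 lay under the median on all arrays, with CDH5 at 2.96 to 3.21. Of 6 leukocyte markers 3 lay under it on all arrays (PTPRC at 2.58 to 2.73) and 1 above it (CD3E at 5.20 to 5.77).

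Of the 64 members 33 lay above the array median on all 10 arrays and 21 lay under it on all 10. A difference of at least 1.5-fold with an adjusted p below 0.05 in limma is termed called. By this rule 20 members were called in at least 1 of 6 comparisons and 44 in none. Of the 33 members above the median 12 were called somewhere, and of the 21 under it 1 was, ITGAL. These counts were not made over all genes, so they describe the members only. Shares of all genes are given below for each comparison. No member was called among the 3 non-coding genes, the 3 integrin-named genes without a subunit, and the cadherins CDH16 and CDH23. Other members without a call were the integrin subunits ITGAE (9.41 to 9.90 over the arrays) and ITGB5 (8.73 to 9.39), ITGB3BP (8.85 to 9.26), the cadherins CDH22 (5.97 to 6.42) and CDH16 (4.11 to 4.60), the clustered protocadherin PCDHGB7 (5.30 to 5.89), ICAM3 (8.14 to 8.92), the antisense RNA ITGA9-AS1 (5.40 to 6.14) and CDH1.

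**Figure D1:**
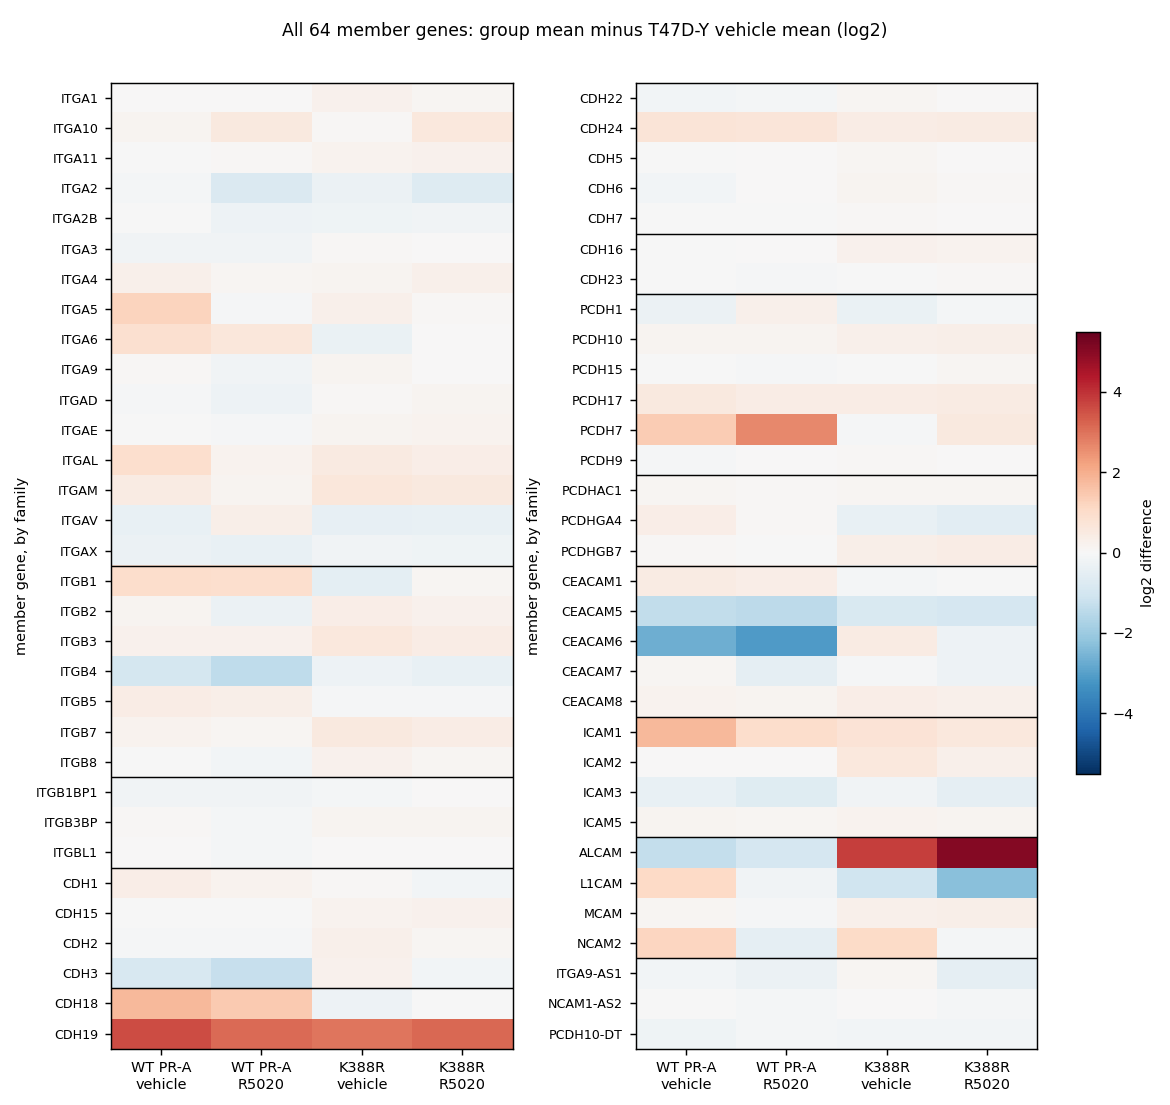
Each row is 1 of the 64 member genes, in blocks by family, and each column is a group mean minus the mean of vehicle-treated T47D-Y cells, coloured on a log2 scale (red higher, blue lower). Most rows are pale, while ALCAM is deep red in both PR-A K388R columns, CDH19 is red in all 4 columns and CEACAM6 is blue in both WT PR-A columns.

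CDH1, the E-cadherin gene, was called in none of the comparisons. Its signals were 11.96 and 11.95 in T47D-Y, 12.27 and 12.35 in WT PR-A with vehicle, 12.09 and 12.20 in WT PR-A with R5020, 12.03 and 11.98 in PR-A K388R with vehicle, and 11.87 and 11.74 in PR-A K388R with R5020. The signal was thus high on every array, with the WT PR-A vehicle arrays uppermost. In each comparison of 2 groups its arrays did not overlap, though none was called. With 2 arrays per group a lack of overlap alone thus says little. The share of all genes without overlap was not computed. The log2 difference between WT PR-A and T47D-Y was 0.35 (95% confidence interval 0.11 to 0.60, limma adjusted p = 0.0833). The R5020 response was -0.16 in WT PR-A cells (-0.41 to 0.09) and -0.20 in PR-A K388R cells (-0.45 to 0.05).

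In WT PR-A cells R5020 lowered the mRNA of ITGA5, ITGAL, ICAM1, NCAM2 and L1CAM and raised that of ITGAV, PCDH1 and PCDH7. Less RNA per cell and fewer cells with the RNA cannot be told apart in such bulk samples. These were 3 members called higher, where 4.4% of all genes were, and 5 called lower, where 3.47% of all genes were. In PR-A K388R cells ALCAM and ITGB1 were called higher (2 members, against 1.25% of all genes) and NCAM2 lower (1 member, against 0.416%). The median change of the members was -0.09 in WT PR-A cells, where that of all genes was -0.02, and -0.04 in PR-A K388R cells, where it was 0.01. Levels of cell type markers differed as well. In WT PR-A cells the mean of the 7 luminal markers was 9.62 and 9.74 with vehicle and 8.99 and 9.08 with R5020. FOXA1 was 9.67 and 9.86 against 8.38 and 8.22, and ELF3 6.58 and 6.97 against 5.69 and 5.87. EPCAM overlapped, at 11.61 and 11.75 against 11.46 and 11.77. The mean of the 6 basal or mesenchymal markers was 6.18 and 6.17 against 5.83 and 6.0. Of these VIM was 7.59 and 7.36 against 6.13 and 6.65, whereas KRT5 was 4.05 and 4.12 against 4.59 and 4.59. In PR-A K388R cells the luminal mean was 10.11 and 9.99 with vehicle and 9.90 and 9.73 with R5020. FOXA1 was 9.36 and 9.48 against 8.93 and 8.68 there. The part of these markers in the adhesion gene responses was not tested. NCAM2 was called in both lines, and for 1 gene, ITGA5, the difference between the lines' responses was itself called.

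ITGA5, the alpha subunit of the main fibronectin receptor, gave signals of 7.89 and 7.94 in WT PR-A cells with vehicle and 6.59 and 6.65 with R5020. In PR-A K388R cells it gave 6.91 and 6.97 with vehicle and 6.78 and 6.73 with R5020, and in T47D-Y 6.73 and 6.62. Only the WT PR-A vehicle arrays were high, and WT PR-A cells with R5020 overlapped T47D-Y. The log2 response fell by 1.29 in WT PR-A cells (SE 0.11, 2.45-fold, limma adjusted p = 8.15e-05), and in PR-A K388R cells it was -0.19 (95% confidence interval -0.43 to 0.05, adjusted p = 0.599). The response in PR-A K388R minus that in WT PR-A cells was 1.11 (SE 0.15, adjusted p = 0.0095), the only called difference of responses among the members, where 0.719% of all genes were called in that direction and 1.16% in the other. Without WT PR-A vehicle replicate 2 the adjusted p of this difference was 0.055, and without PR-A K388R R5020 replicate 1 it was 0.0536. The sizes were then 1.08 and 1.07. Without the replicate block ITGA6 (0.0292) and ITGB1 (0.0333) were called as well. With unmoderated contrasts the ITGA5 difference was not called (adjusted p = 0.12).

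ITGAV, the alpha subunit of vitronectin receptors, had signals of 9.11 and 9.16 with vehicle and 9.75 and 10.0 with R5020 in WT PR-A cells. In PR-A K388R cells the signals were 9.20 and 9.01 with vehicle and 9.15 and 9.18 with R5020. The WT PR-A groups did not overlap, whereas the PR-A K388R groups did. ITGAV rose by 0.73 in WT PR-A cells (SE 0.13, limma adjusted p = 0.0059) and differed by 0.06 in PR-A K388R cells, but the difference of responses, -0.67 (95% confidence interval -1.08 to -0.27), was not called (adjusted p = 0.128). The WT PR-A call was lost without vehicle replicate 1 (adjusted p = 0.065) or R5020 replicate 2 (0.0593). ITGAL, the alpha subunit of the leukocyte integrin LFA-1, fell by 0.70 in WT PR-A cells (SE 0.11, adjusted p = 0.00356), from 3.51 and 3.45 to 2.70 and 2.87. Its signals lay under the median on every array and at or under the lower quartile on 8 of 10, and the pan-leukocyte marker PTPRC did not exceed 2.73 on any array.

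ITGB1, the beta subunit shared by most matrix-binding integrins, went from 7.16 and 6.98 to 7.68 and 7.79 with R5020 in PR-A K388R cells, without overlap. In WT PR-A cells it was 8.59 and 8.59 with vehicle and 8.43 and 8.63 with R5020, overlapping at a higher level. It rose by 0.66 in PR-A K388R cells (SE 0.12, limma adjusted p = 0.0338). This call was lost without either T47D-Y array (adjusted p = 0.0556), either WT PR-A vehicle array (0.0652) or any PR-A K388R array (0.0977 to 0.243), with sizes of 0.55 to 0.77. The difference of responses was 0.72 for ITGB1 (95% confidence interval 0.33 to 1.11, adjusted p = 0.0895) and 0.62 for ITGA6 (0.27 to 0.96, adjusted p = 0.0977). ITGA2, the collagen-binding alpha subunit, was 7.42 and 7.71 with vehicle and 6.60 and 7.13 with R5020 in WT PR-A cells, a difference of -0.70 that was not called (adjusted p = 0.0818).

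No classical cadherin was called in the response to R5020, and of the 6 non-clustered protocadherins 2 rose in WT PR-A cells, where 4.4% of all genes did. PCDH7, a protocadherin of the delta group, went from 5.16 and 4.78 to 6.40 and 6.03 in WT PR-A cells and from 3.60 and 3.42 to 3.80 and 4.43 in PR-A K388R cells. R5020 and vehicle arrays did not overlap in either line, and the level in WT PR-A cells was the higher throughout. The response was 1.24 in WT PR-A cells (SE 0.23, 2.37-fold, limma adjusted p = 0.00755) and 0.60 in PR-A K388R cells (adjusted p = 0.339), with a difference of -0.64 (95% confidence interval -1.36 to 0.08, adjusted p = 0.496). The WT PR-A call of PCDH7 was lost without vehicle replicate 2 (adjusted p = 0.0952) or R5020 replicate 1 (0.0786). PCDH1, a delta protocadherin found at epithelial cell contacts, went from 7.58 and 7.72 to 8.31 and 8.23 in WT PR-A cells and from 7.58 and 7.68 to 7.88 and 7.86 in PR-A K388R cells. It rose by 0.62 in WT PR-A cells (SE 0.12, adjusted p = 0.00838), a call lost without vehicle replicate 1 (0.109) or R5020 replicate 1 (0.0771).

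Among the immunoglobulin-type molecules, NCAM2, a neural adhesion molecule, fell in both lines. Its signals went from 5.69 and 5.21 to 3.60 and 3.94 in WT PR-A cells and from 5.46 and 5.14 to 3.97 and 4.35 in PR-A K388R cells. Beside T47D-Y signals of 4.23 and 4.30, the R5020 arrays lay lower in WT PR-A cells and on either side in PR-A K388R cells. All these R5020 and T47D-Y signals were under the array median. R5020 and vehicle arrays overlapped in neither line. The response was -1.68 in WT PR-A cells (SE 0.20, 3.21-fold, limma adjusted p = 0.000699) and -1.13 in PR-A K388R cells (SE 0.20, 2.2-fold, adjusted p = 0.029), with a difference of 0.55 (95% confidence interval -0.10 to 1.20). The PR-A K388R call was lost without either T47D-Y array (adjusted p = 0.0507) or any PR-A K388R array (0.0584 to 0.241), with sizes of -0.89 to -1.37.

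ICAM1, a ligand of leukocyte integrins that inflammatory signals induce, went from 8.14 and 8.46 to 7.56 and 7.34 in WT PR-A cells, and from 7.27 and 7.25 to 7.21 and 6.98 in PR-A K388R cells. It fell by 0.85 in WT PR-A cells (SE 0.15, limma adjusted p = 0.00571), a call lost without vehicle replicate 2 (adjusted p = 0.0738) or R5020 replicate 2 (0.056). The difference of responses was 0.69 (95% confidence interval 0.22 to 1.16, adjusted p = 0.179). L1CAM, a neural adhesion molecule also found on carcinoma cells, went from 11.51 and 10.87 to 9.78 and 10.01 in WT PR-A cells and from 8.69 and 9.30 to 7.46 and 8.12 in PR-A K388R cells. R5020 arrays were the lower in both lines, with a wide spread between arrays. The response was -1.29 in WT PR-A cells (SE 0.34, adjusted p = 0.0445) and -1.21 in PR-A K388R cells (95% confidence interval -1.96 to -0.46, adjusted p = 0.159), and the WT PR-A call was lost without any of the WT PR-A arrays (0.0518 to 0.361), with sizes of -0.89 to -1.69.

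ALCAM, which binds CD6 on T cells and itself on other cells, went from 10.23 and 9.92 to 11.27 and 11.34 with R5020 in PR-A K388R cells, without overlap. In WT PR-A cells it was far lower, 4.76 and 5.15 with vehicle and 5.60 and 5.12 with R5020, with overlap. It rose by 1.23 in PR-A K388R cells (SE 0.20, 2.35-fold, limma adjusted p = 0.0192), and the difference of responses was 0.83 (95% confidence interval 0.18 to 1.47, adjusted p = 0.257). The call was lost without any of the PR-A K388R arrays (adjusted p = 0.0657 to 0.162), with sizes of 1.04 to 1.43, and with the mean of all ALCAM probe sets (0.111). The CEACAM family had no call with R5020. CEACAM6 in PR-A K388R cells was 8.44 and 7.55 with vehicle and 7.73 and 6.81 with R5020 (-0.72, adjusted p = 0.574), and CEACAM7 in WT PR-A cells had an adjusted p of 0.0129 but differed by -0.58, just under 1.5-fold.

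**Figure D2:**
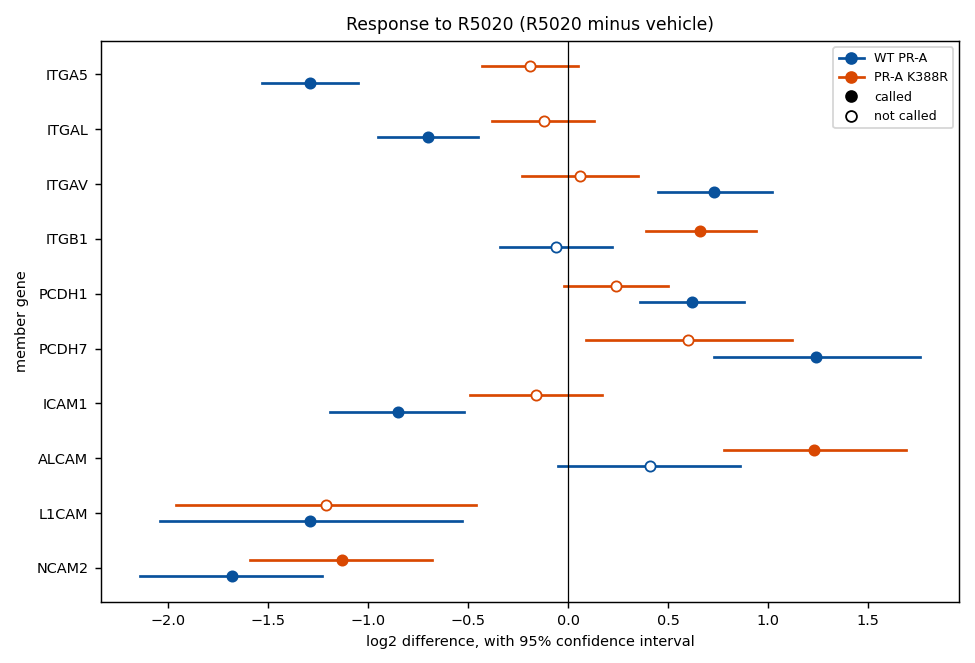
The log2 difference of R5020 minus vehicle, with its 95% confidence interval, is plotted for each member called in either PR-A line (blue, WT PR-A; orange, PR-A K388R; filled circles, called; open circles, not called). NCAM2 is left of 0 in both lines, while for ITGA5 only the WT PR-A circle, at -1.29, lies far from 0.

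The RefSeq promoters (GRCh38.p14, from 250 bases before to 50 after the start) of the members were searched on both strands for 4 motifs. Sequences were found for 45 of 64 members and 9 of the 10 called with R5020. The palindrome bound by PR, made of the arms GNACA and TGTNC with 3 bases between them, was in 0 of the 45 and in 0.388% of all 27305 promoters. The extended arm TGTTCT was in 6 of 45 members, in 0 of the 9 and in 14.9% of all promoters. The GC box GGGCGG was in 24 of 45 members, 6 of the 9 and 44.6% of all promoters, and the AP-1 site TGANTCA in 1 of 45, ITGA5, and 7.76% of all. A motif absent from these windows says only that these letters are not there. The promoters of ALCAM and ITGA5 are shown because ALCAM differed most between the vehicle-treated lines and ITGA5 had the called difference of responses, those of ICAM1 and NCAM2 because their mRNA fell with R5020 from levels above T47D-Y in WT PR-A cells. They are chr3:105366659-105366958 (+ strand), chr12:54419217-54419516 (- strand), chr19:10270870-10271169 (+ strand) and chr21:21146912-21147211 (+ strand). Sequences run 5′ to 3′ along the gene, and capitals mark GC boxes (GGGCGG or its reverse complement) and, near the 3′ end of the ITGA5 promoter, the AP-1 site. NCAM2 held none of the 4 motifs.
ALCAM: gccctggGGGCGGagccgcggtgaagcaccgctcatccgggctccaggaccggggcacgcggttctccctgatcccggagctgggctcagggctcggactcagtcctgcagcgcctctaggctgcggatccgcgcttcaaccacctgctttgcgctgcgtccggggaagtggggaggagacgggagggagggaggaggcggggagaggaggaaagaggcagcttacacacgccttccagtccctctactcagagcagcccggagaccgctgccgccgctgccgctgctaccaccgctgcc
ITGA5: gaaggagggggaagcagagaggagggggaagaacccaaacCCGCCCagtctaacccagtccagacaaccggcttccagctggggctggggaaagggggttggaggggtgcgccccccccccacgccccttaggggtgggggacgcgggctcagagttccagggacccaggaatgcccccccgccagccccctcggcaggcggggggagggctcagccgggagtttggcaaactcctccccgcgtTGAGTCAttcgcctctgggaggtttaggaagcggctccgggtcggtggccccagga
ICAM1: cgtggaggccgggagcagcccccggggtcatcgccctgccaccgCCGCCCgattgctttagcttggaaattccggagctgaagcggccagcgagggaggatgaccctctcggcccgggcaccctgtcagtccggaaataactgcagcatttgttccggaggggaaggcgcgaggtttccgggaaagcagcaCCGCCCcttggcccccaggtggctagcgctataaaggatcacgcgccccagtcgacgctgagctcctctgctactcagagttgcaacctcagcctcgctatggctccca
NCAM2: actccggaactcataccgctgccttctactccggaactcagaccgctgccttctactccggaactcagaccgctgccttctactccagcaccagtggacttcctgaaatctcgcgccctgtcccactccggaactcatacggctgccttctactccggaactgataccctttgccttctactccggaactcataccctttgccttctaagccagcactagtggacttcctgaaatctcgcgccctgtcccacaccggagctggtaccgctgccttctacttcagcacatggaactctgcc

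The vehicle-treated lines were compared in pairs. In WT PR-A cells 10 members were higher than in T47D-Y (CDH18, CDH19, CDH24, ICAM1, ITGA5, ITGA6, ITGAL, ITGB1, NCAM2 and PCDH7), where 4.48% of all genes were called higher, and 5 were lower (ALCAM, CDH3, CEACAM5, CEACAM6 and ITGB4), where 4.03% were. In PR-A K388R cells 5 members were higher than in T47D-Y (ALCAM, CDH19, ICAM1, ICAM2 and NCAM2, against 1.35% of all genes) and 0 were lower, against 2.48% (limma). An unadjusted p under 0.05 in either direction was found for 23 members, against 22% of all genes. Unmoderated contrasts called 0 members in this comparison, and the share of all genes that they called was not computed. Between the PR-A lines 4 members were higher in PR-A K388R cells (ALCAM, CDH3, CEACAM6 and ITGB4, against 3.49%) and 8 were lower (CDH18, ICAM1, ITGA5, ITGA6, ITGB1, L1CAM, PCDH7 and PCDHGA4, against 5.63%). The members' median was 0.04, 0.11 and 0.09 in these comparisons, and that of all genes 0.02, 0.05 and 0.05. The comparisons share arrays. Those of T47D-Y enter both comparisons with T47D-Y. The vehicle arrays of each PR-A line enter its comparison with T47D-Y, the comparison between the PR-A lines and the response of that line to R5020. Vehicle arrays of both PR-A lines also enter the difference of responses. Marker levels differed between the vehicle-treated lines. The luminal mean was 10.25 and 10.33 in T47D-Y, 9.62 and 9.74 in WT PR-A and 10.11 and 9.99 in PR-A K388R cells. The basal or mesenchymal mean was 6.83 and 6.8, 6.18 and 6.17, and 6.27 and 6.22 in that order. Single markers did not all follow these means. From T47D-Y to WT PR-A cells SPARC went from 5.68 and 5.42 to 2.72 and 2.92. ACTA2 went the other way, from 7.22 and 7.16 to 8.34 and 8.18. Of the luminal markers ESR1 went from 9.74 and 10.11 to 8.34 and 8.52, whereas EPCAM (11.66 and 11.52 against 11.61 and 11.75) overlapped. The part of the markers in the differences of the members was not tested.

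ALCAM differed most between the PR-A lines. With vehicle its signals were 6.11 and 6.45 in T47D-Y, 4.76 and 5.15 in the WT PR-A line, and 10.23 and 9.92 in PR-A K388R cells. None of the groups overlapped, with the PR-A K388R arrays on top and the WT PR-A arrays lowest. The log2 difference was 5.13 between PR-A K388R and WT PR-A cells (SE 0.20, 34.9-fold, limma adjusted p = 1.09e-06), 3.80 between PR-A K388R cells and T47D-Y (13.9-fold, adjusted p = 7.93e-06) and -1.33 between WT PR-A cells and T47D-Y (2.51-fold, adjusted p = 0.00269). The last was not called with the mean of all ALCAM probe sets (adjusted p = 0.132).

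Of the integrin subunits, 3 of 16 alpha and 1 of 7 beta were higher and 1 of 7 beta was lower in WT PR-A cells than in T47D-Y (4.48% and 4.03% of all genes). ITGA6, which pairs with the ITGB1 or the ITGB4 product to bind laminin, was 7.42 and 7.42 in T47D-Y, 8.28 and 8.31 in the WT PR-A line, and 7.0 and 7.12 in PR-A K388R cells. ITGB1 was 7.68 and 7.55 in T47D-Y, 8.59 and 8.59 in the WT PR-A line, and 7.16 and 6.98 in PR-A K388R cells. For both genes the WT PR-A arrays were the highest and the PR-A K388R arrays the lowest, without overlap. WT PR-A cells were above T47D-Y by 0.87 for ITGA6 (SE 0.11, limma adjusted p = 0.000793) and 0.98 for ITGB1 (SE 0.12, adjusted p = 0.000888), and PR-A K388R minus WT PR-A cells gave -1.24 (adjusted p = 0.000121) and -1.52 (adjusted p = 7.67e-05). Between PR-A K388R cells and T47D-Y, ITGB1 differed by -0.54, under 1.5-fold (adjusted p = 0.0396).

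ITGB4, whose product anchors hemidesmosomes, ran the other way. It was 8.87 and 9.03 in T47D-Y, 7.99 and 7.96 in the WT PR-A line, and 8.71 and 8.68 in PR-A K388R cells. The WT PR-A arrays were the lowest, by 0.97 against T47D-Y (a log2 difference of -0.97, SE 0.12, limma adjusted p = 0.000659), and PR-A K388R cells were 0.72 above WT PR-A cells (SE 0.12, adjusted p = 0.00389). ITGA5, at the signals given above, was 1.24 higher in WT PR-A cells than in T47D-Y (SE 0.11, 2.36-fold, adjusted p = 0.000105), and PR-A K388R minus WT PR-A cells was -0.97 (adjusted p = 0.000428). ITGAL was 2.60 and 2.53 in T47D-Y and 0.91 higher in WT PR-A cells (SE 0.11, adjusted p = 0.000725), at its low signals. ITGAM, a leukocyte integrin subunit, differed by 0.64 between PR-A K388R cells and T47D-Y and was not called (adjusted p = 0.0895).

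**Figure D3:**
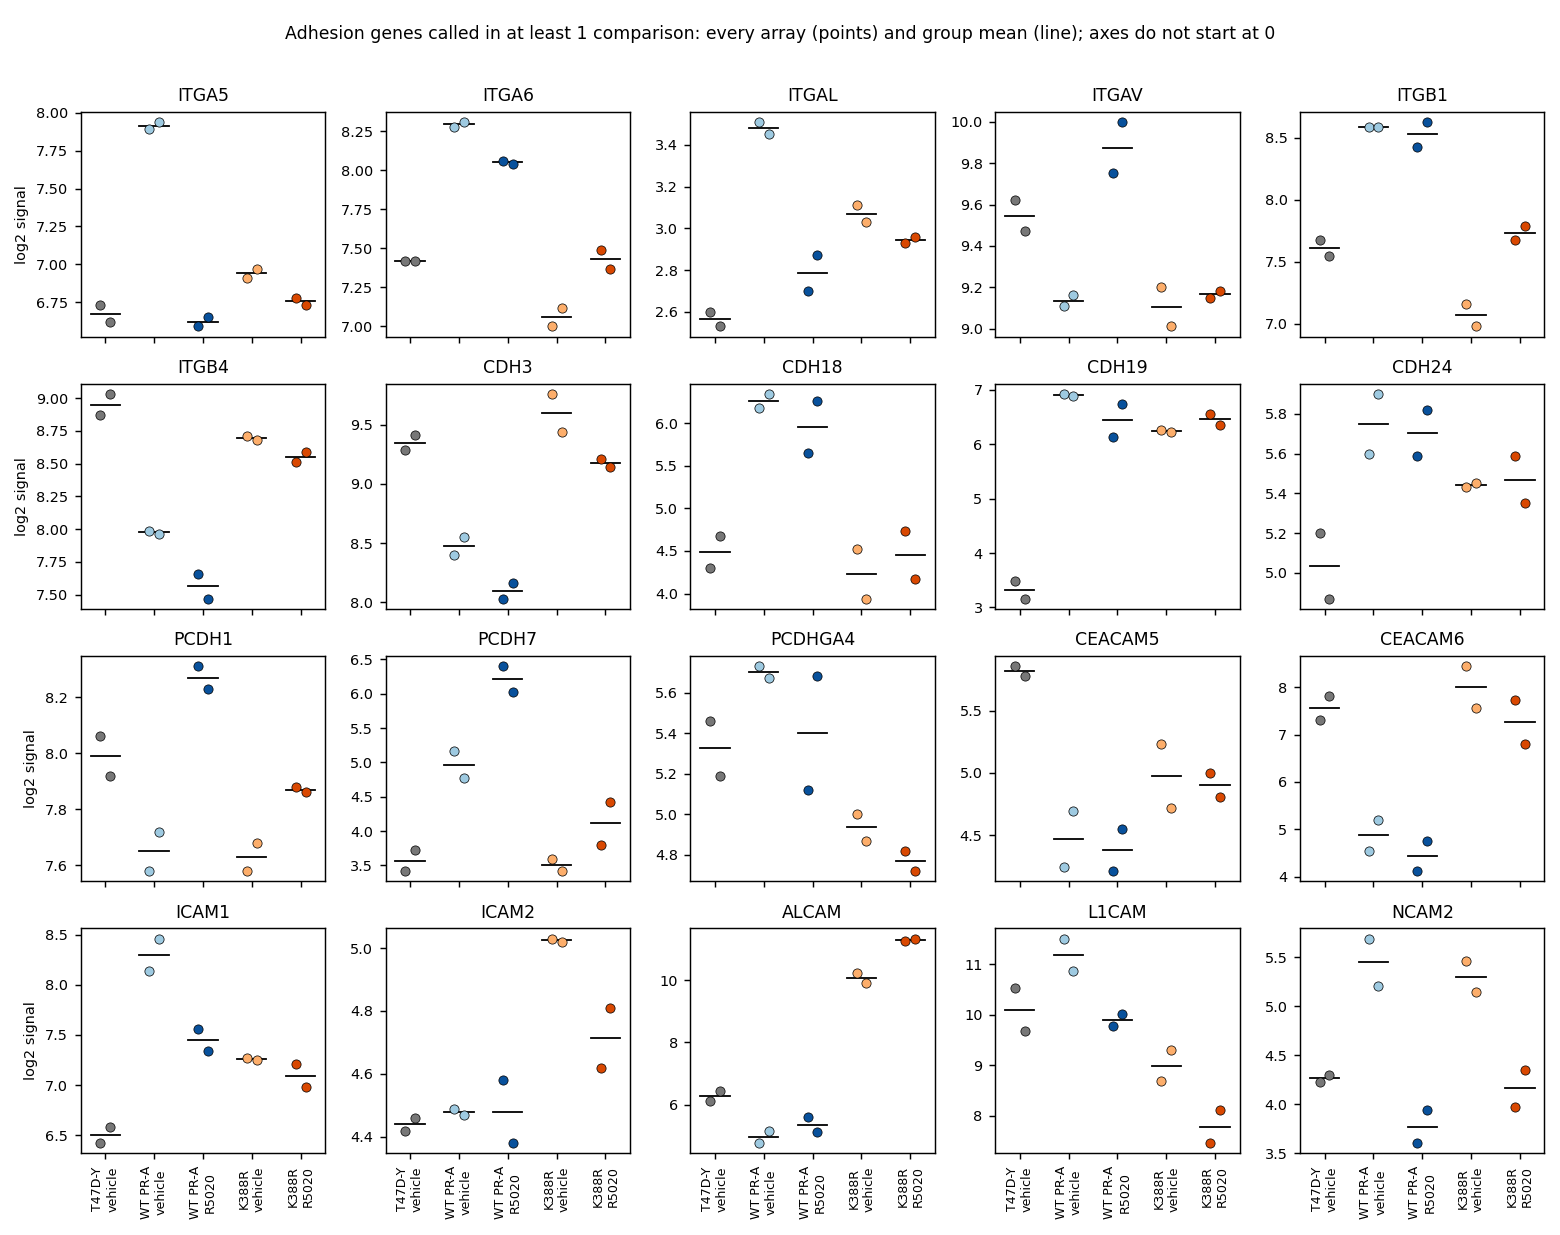
Every array (points) and group mean (lines) of the 20 members called in at least 1 comparison is shown as log2 signal, with 1 panel and 1 scale per gene that does not start at 0, by family. The WT PR-A vehicle arrays stand alone at the top for ITGA5, while ALCAM lies above 9.9 in all PR-A K388R arrays and under 6.5 in the others.

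Among the cadherins, CDH19, CDH18 and CDH24 of the type II class were higher and CDH3 of the type I class was lower in WT PR-A cells than in T47D-Y. CDH19, known from Schwann cell precursors, was 3.49 and 3.16 in T47D-Y, near the lower quartile of the array, and 6.92 and 6.88 in the WT PR-A line, and 6.26 and 6.23 in PR-A K388R cells. Both PR-A lines lay far above T47D-Y, by 3.58 in WT PR-A cells (SE 0.19, 12-fold, limma adjusted p = 6.58e-06) and by 2.92 in PR-A K388R cells (7.59-fold, adjusted p = 3.59e-05). Both folds depend on T47D-Y signals at the dim end of the array, and another CDH19 probe set gave 1.42 and 0.80. The PR-A lines differed from each other by -0.66, which was not called (adjusted p = 0.0598), except among other settings without the replicate block (0.0389) or without either WT PR-A R5020 array (0.00869).

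CDH18, a type II cadherin of brain, was high in WT PR-A cells alone among the vehicle groups, at 6.18 and 6.34 against 4.30 and 4.67 in T47D-Y and 4.52 and 3.94 in PR-A K388R cells. The log2 differences were 1.77 against T47D-Y (SE 0.27, limma adjusted p = 0.00247) and, for PR-A K388R minus WT PR-A cells, -2.03 (adjusted p = 0.00123). With unmoderated contrasts neither was called (adjusted p = 0.118 and 0.0894). CDH3, the P-cadherin gene of basal epithelium, was 9.29 and 9.41 in T47D-Y, 8.40 and 8.55 in the WT PR-A line, and 9.76 and 9.44 in PR-A K388R cells. It was thus lower in WT PR-A cells than in either other line, by -0.88 against T47D-Y (SE 0.14, adjusted p = 0.00302) and with 1.13 for PR-A K388R minus WT PR-A cells (adjusted p = 0.000801). CDH24 was 5.20 and 4.87 in T47D-Y and 5.60 and 5.90 in WT PR-A cells, a difference of 0.71 (SE 0.16, adjusted p = 0.0221) that was not called without T47D-Y replicate 2 (0.219) or WT PR-A vehicle replicate 2 (0.217).

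PCDH7 was 3.42 and 3.72 in T47D-Y, in the dimmer part of the array, against 5.16 and 4.78 in the WT PR-A line, and 3.60 and 3.42 in PR-A K388R cells. The WT PR-A vehicle arrays were above both other lines, which overlapped each other. WT PR-A cells were 1.40 above T47D-Y (SE 0.23, limma adjusted p = 0.00384), and PR-A K388R minus WT PR-A cells was -1.46 (adjusted p = 0.00322). The first call was lost without T47D-Y replicate 1 (adjusted p = 0.0506) or WT PR-A vehicle replicate 1 (0.0531). PCDHGA4, 1 of the variable genes of the gamma protocadherin cluster, was 5.73 and 5.67 in the WT PR-A line, and 5.0 and 4.87 in PR-A K388R cells (-0.76, SE 0.18, adjusted p = 0.0225), and leaving out any of these 4 arrays ended the call (0.0713 to 0.157).

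Of the 5 measured genes of the carcinoembryonic antigen family, 2 were lower in WT PR-A cells than in T47D-Y, where 4.03% of all genes were. The other members, CEACAM1 (0.45), CEACAM8 (0.21) and CEACAM7 (0.10), were not called, and the family's median difference was 0.10. CEACAM6, a lipid-anchored surface protein of epithelia, was 7.30 and 7.81 in T47D-Y, 4.54 and 5.20 in the WT PR-A line, and 8.44 and 7.55 in PR-A K388R cells. The WT PR-A arrays lay near the array median, and the T47D-Y and PR-A K388R arrays overlapped well above it. The difference was -2.68 for WT PR-A cells against T47D-Y (SE 0.39, 6.4-fold, limma adjusted p = 0.00207) and 3.12 for PR-A K388R minus WT PR-A cells (8.68-fold, adjusted p = 0.000974). Neither was called with unmoderated contrasts (adjusted p = 0.12 and 0.0887). CEACAM5, which encodes the tumour marker CEA, was 5.86 and 5.78 in T47D-Y, 4.24 and 4.69 in the WT PR-A line, and 5.23 and 4.72 in PR-A K388R cells. It was -1.35 against T47D-Y in WT PR-A cells (SE 0.21, adjusted p = 0.00262), and -0.85 in PR-A K388R cells, which was not called (adjusted p = 0.0515). It was close to the threshold, and other settings called it: the fit without the replicate block (0.0315), an intensity trend (0.0344), quantile normalization (0.0473), arrays centred on their medians (0.0353), the dimmest probe sets left out (0.0492), the arrays of the compared groups (0.0484), the mean of all probe sets (0.0498), and the fits without PR-A K388R vehicle replicate 1 (0.0291) or any 1 of the WT PR-A arrays (0.0438 to 0.0446).

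ICAM1 was above T47D-Y (6.42 and 6.58) in both PR-A lines. It stood at 8.14 and 8.46 in WT PR-A cells and at 7.27 and 7.25 in PR-A K388R cells, without overlap between any of the 3 vehicle groups. WT PR-A cells were 1.80 above T47D-Y (SE 0.15, 3.49-fold, limma adjusted p = 8.37e-05) and PR-A K388R cells 0.76 (1.69-fold, adjusted p = 0.0214), and PR-A K388R minus WT PR-A cells was -1.04 (adjusted p = 0.00189). ICAM2, best known from endothelium, was 4.42 and 4.46 in T47D-Y, 4.49 and 4.47 in the WT PR-A line, and 5.03 and 5.02 in PR-A K388R cells, a difference of 0.59 from T47D-Y at the 1.5-fold limit (SE 0.12, adjusted p = 0.0248), which was 0.52 and not called with the arrays centred on their medians. Leaving out any of the 4 arrays compared ended the call of ICAM1 (0.0778 to 0.193) and of ICAM2 (0.102 to 0.182) in PR-A K388R cells, and the other ICAM1 probe set gave 0.34 (adjusted p = 0.47).

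NCAM2 was above T47D-Y by 1.19 in WT PR-A cells (SE 0.20, limma adjusted p = 0.00511) and by 1.03 in PR-A K388R cells (SE 0.20, adjusted p = 0.0221), from the vehicle signals given above, which overlapped between the PR-A lines. The first call was lost without T47D-Y replicate 1 (adjusted p = 0.0514) or WT PR-A vehicle replicate 1 (0.0615), and the other without any of the 4 arrays compared (0.0586 to 0.171). L1CAM was 10.53 and 9.68 in T47D-Y, between WT PR-A cells (11.51 and 10.87) and PR-A K388R cells (8.69 and 9.30). PR-A K388R minus WT PR-A cells was -2.19 (SE 0.34, 4.56-fold, adjusted p = 0.00293), while WT PR-A cells against T47D-Y, 1.08 (adjusted p = 0.0822), and the same for PR-A K388R cells, -1.11 (adjusted p = 0.105), were not called.

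**Figure D4:**
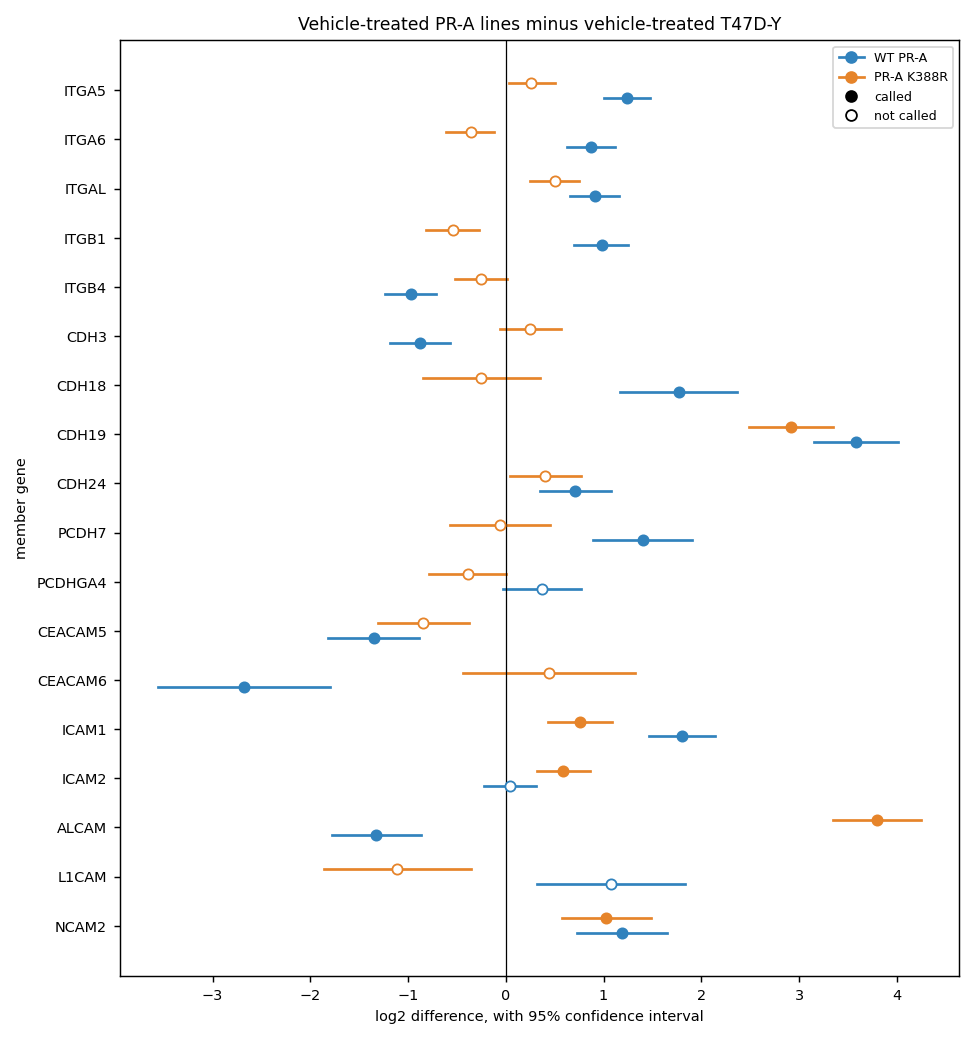
For every member called in a comparison of vehicle-treated lines, the log2 difference from T47D-Y and its 95% confidence interval are plotted for PR-A K388R (orange) and WT PR-A cells (blue), with filled circles for called and open circles for not called. Both circles of CDH19 lie near 3, those of ALCAM on opposite sides of 0, and CEACAM6 is far below 0 in WT PR-A cells only.

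Several members had a further probe set, which gave 24 further readings of called differences. Of these 15 were called in the same direction and 0 in the other. The second ALCAM probe set gave 4.50 between the PR-A lines with vehicle (limma adjusted p = 0.000113), 3.74 between PR-A K388R cells and T47D-Y (adjusted p = 0.00085), and 1.35 for R5020 in PR-A K388R cells (adjusted p = 0.183). Its vehicle signals were 8.29 and 7.22 in PR-A K388R cells, 2.66 and 3.85 in the WT PR-A line, and 4.03 and 4.01 in T47D-Y. The remaining ALCAM probe set, at a mean signal of only 3.08, was called in none of these comparisons. It gave 0.65 between the PR-A lines (limma adjusted p = 0.357) and 0.47 between PR-A K388R cells and T47D-Y (0.54). For R5020 in PR-A K388R cells it gave 0.73 (0.563). The smaller CDH19 differences from the further probe set, 1.42 and 0.80, were called too. The further probe set of ICAM1 gave 2.16 for WT PR-A cells against T47D-Y and -1.82 between the PR-A lines, both called, and -0.76 for R5020 in WT PR-A cells, not called (adjusted p = 0.0926). That of PCDH7 gave 0.37 for R5020 in WT PR-A cells, also not called (adjusted p = 0.251).

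**Figure D5:**
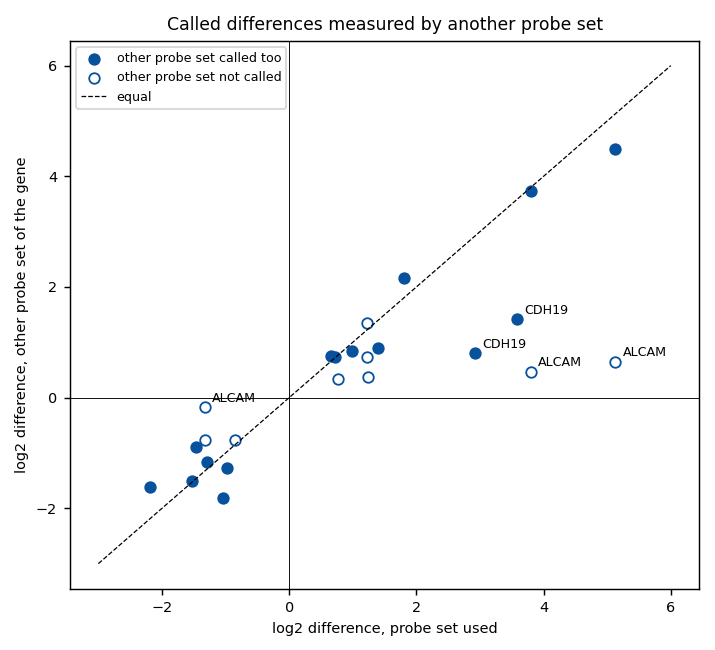
Each point is a called difference of a member read again, with the log2 difference from the probe set used on the horizontal axis and that from another probe set of the gene on the vertical axis (filled, called too; open, not called; dashed line, equal values). Of the 24 points 15 are filled, and named points differ by more than 1 between the probe sets.

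Genes that work with these receptors were read from 6 lists. Over all genes, 4.4% were called higher and 3.47% lower in the WT PR-A response to R5020, 4.48% and 4.03% in vehicle-treated WT PR-A cells against T47D-Y, 3.49% and 5.63% in PR-A K388R against WT PR-A cells, and 1.35% and 2.48% between the mutant line and T47D-Y. For the difference of responses the shares were 0.719% and 1.16%. In lists of 8 to 14 genes, 1 or 2 calls are read as values of the named genes and not as a result about the list. Of 12 measured catenin and adherens junction genes, VCL (vinculin) rose by 0.92 with R5020 in WT PR-A cells (limma adjusted p = 0.000958), with a list median of -0.01, and CTNNAL1 had a called difference of responses, 0.80 (adjusted p = 0.0475). Of 13 desmosome genes, 2 rose after R5020 in WT PR-A cells, PPL (periplakin, 2.41, adjusted p = 2.43e-05) and DSP (desmoplakin, 0.95, adjusted p = 0.0117), and 1 fell, JUP (plakoglobin, -0.78, adjusted p = 0.00208). The list median was 0.12. PPL responded differently between the lines, with PR-A K388R minus WT PR-A at -2.45 (adjusted p = 0.00197). With vehicle, JUP, PPL and EVPL (envoplakin) were lower in WT PR-A cells than in T47D-Y, by log2 differences of -0.64, -1.01 and -0.63, with a list median of -0.25 beside 0.02 for all genes. PPL and EVPL were higher in PR-A K388R than in WT PR-A cells with vehicle, by 0.76 (limma adjusted p = 0.0108) and 0.63 (adjusted p = 0.0151).

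Of 14 measured integrin adaptor and focal adhesion genes, the docking protein NEDD9 rose by 2.26 (limma adjusted p = 0.000369) and PXN (paxillin) fell by 0.74 (adjusted p = 0.00228) with R5020 in WT PR-A cells, with a list median of -0.09. With vehicle NEDD9 was below its T47D-Y level in each PR-A line, at -1.49 in WT PR-A cells (adjusted p = 0.00406) and -1.16 in PR-A K388R cells (adjusted p = 0.0295). ZYX (zyxin) in PR-A K388R cells was 0.91 above T47D-Y (adjusted p = 0.00651) and 1.09 above WT PR-A cells (adjusted p = 0.00096). Of 10 tetraspanins and other integrin partners, CD9 rose by 0.91 with R5020 in WT PR-A cells (adjusted p = 0.00179), and CD82 was 0.63 higher in PR-A K388R than in WT PR-A cells with vehicle (adjusted p = 0.00414). Of 11 other adhesion molecules, IGSF3 fell by 1.36 with R5020 in WT PR-A cells (adjusted p = 6.94e-05), with a called difference of responses of 0.82 (adjusted p = 0.0374). With vehicle, PR-A K388R minus WT PR-A cells gave -0.64 for IGSF3 (adjusted p = 0.00497) and 2.20 for the hyaluronan receptor CD44 (adjusted p = 0.0218). Of 8 regulators of cadherin genes, TCF4 was lower with vehicle in PR-A K388R cells, at -1.11 against T47D-Y (adjusted p = 0.0224) and -1.42 against WT PR-A cells (adjusted p = 0.00299). In the response of PR-A K388R cells limma called 0 of the 68 measured genes of these lists, of which 13 had an unadjusted p under 0.05. Of all genes 1.66% were called and 12.3% had such a p in this comparison.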

How the data were processed

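The deposited values are log2 signals per probe set, made by the authors in Partek Genomics Suite. The normalization and background correction are not given in the sources used here. The table holds 16376 probe sets, of which 12547 have 1 gene symbol in the platform annotation, 457 have several and 3372 are not listed there. For every probe set the sums of replicates 1 and 2 over the 5 groups were equal (largest absolute difference 0.0003), so the replicate number had been removed before deposit and per-array values are shown as left by that step. All 10 arrays were therefore fitted in limma 3.58.1 (R 4.3.3, tables in Python 3.11.15) with 1 mean per group and the replicate number as a block (4 residual and 5.62 prior degrees of freedom). Whether same-numbered arrays pair could not be checked, because that removal forces their deviations to cancel. The Benjamini-Hochberg adjustment ran over the whole table, and calls needed an adjusted p below 0.05 with at least a 1.5-fold difference. Only 2 arrays per group limit the precision, and confidence intervals (95%) come from the same fit. The fit was also run on simulated data with changes added to the WT PR-A R5020 group alone. That run covered only the R5020 responses, and no result here rests on it. Members and gene lists were chosen with earlier results of these data known. Of these genes, every called member, uncalled members with a difference of at least 1.5-fold (the largest first), the brightest member of each family, CDH1 and ITGB1, and up to 4 called genes of a list were to be named. CEACAM7 and the further probe sets were named after their values were seen. Probe sets with several symbols, 2 of them protocadherins, were left out. The alternatives tried were another variance model, normalization, filter, summary of probe sets or fold, the compared arrays alone, and each array left out.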

Additional observations from a re-analysis of the deposited data

Results flagged for a closer look

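ITGA5 responded differently to R5020 in the 2 PR-A lines by the test of the difference itself. The response in PR-A K388R cells minus that in WT PR-A cells was 1.11 on the log2 scale (limma interaction contrast, SE 0.15, adjusted p = 0.0095), where the WT PR-A response was -1.29 and the PR-A K388R response -0.19. The call was lost with unmoderated contrasts (adjusted p = 0.12). It was also lost without WT PR-A vehicle replicate 2 or PR-A K388R R5020 replicate 1. Over the 20 alternatives the size ran from 1.06 to 1.14.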

How the results depend on the processing

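None of the 44 calls of a member changed sign under the 20 alternatives, 8 were kept under every one, and 28 were kept with each array left out in turn. Without the replicate block all 44 calls held, and the members with a called difference of responses numbered 3 in place of 1, with ITGA6 (adjusted p = 0.0292) and ITGB1 (0.0333) added. An intensity trend in the variances also gave 3, with ITGAV and ITGB1 added. The block also decided CEACAM5 for PR-A K388R against T47D-Y (adjusted p = 0.0315 without it) and CDH19 between the PR-A lines (0.0389), and it changed no other call of a member. Unmoderated analysis of variance contrasts left 2 members called for R5020 in WT PR-A cells, 0 in PR-A K388R cells, 0 for the difference of responses, 7 for WT PR-A against T47D-Y, 0 between PR-A K388R cells and T47D-Y, and 6 between the PR-A lines. In that order the main counts were 8, 3, 1, 15, 5 and 12. Of the 44 calls 29 were lost with the unmoderated contrasts. Among them were all calls of CEACAM5, CEACAM6, CDH18, L1CAM, NCAM2 and PCDH7 (adjusted p = 0.0767 to 0.331). A fold of at least 2 left 4 members for R5020 in WT PR-A cells, 9 for WT PR-A against T47D-Y and 3 for PR-A K388R against T47D-Y. The arrays of the compared groups alone gave 5 for R5020 in PR-A K388R cells, with CEACAM6 and L1CAM added. With each array left out in turn the counts ran from 5 to 9, 0 to 3, 0 to 2, 13 to 15, 2 to 6 and 11 to 13 in the same order. Shares of all genes called under these alternatives were not computed, so these counts describe the members only. The causes of the changes were not tested. Only 2 arrays per group limit the precision, and the largest standard errors among the called members were those of CEACAM6 (0.39), L1CAM (0.34) and CDH18 (0.27).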

Other observations

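By 4 further probe sets a member was called where the probe set used for it was not. The further probe set of ITGB5, an integrin beta subunit that pairs with the ITGAV product, was 0.64 higher in PR-A K388R than in WT PR-A cells with vehicle (limma adjusted p = 0.026), whereas the brighter one used gave -0.45 (adjusted p = 0.0587), so the 2 probe sets differed in sign. For ITGA2B, the platelet fibrinogen receptor subunit, the same comparison gave -0.68 (adjusted p = 0.0163), and for CDH19 it gave -0.62 (adjusted p = 0.0127). For ITGB1 the further probe set gave -0.65 between PR-A K388R cells and T47D-Y (adjusted p = 0.0293), beside -0.54 with the one used.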
